A study of Saccharomyces cerevisiae with 227 samples.

Results

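The 5 genes described here encode the flavin dehydrogenases through which mitochondria of Saccharomyces cerevisiae take electrons from NADH and from lactate. They were NDI1 (YML120C), NDE1 (YMR145C), NDE2 (YDL085W), CYB2 (YML054C) and DLD1 (YDL174C), chosen by their open reading frame names, and all 5 were among the 5609 open reading frames on the arrays. Budding yeast has no proton-pumping complex I. Instead Ndi1 oxidizes NADH of the matrix, and its relatives Nde1 and Nde2, which face the intermembrane space, oxidize NADH of the cytosol. All of these hand their electrons to ubiquinone, from which they pass through the cytochrome bc1 complex to cytochrome c, cytochrome oxidase and oxygen. Cyb2, the L-lactate dehydrogenase also called flavocytochrome b2, and Dld1, a D-lactate dehydrogenase of the inner membrane, hand their electrons to cytochrome c, downstream of the bc1 complex. Oxygen deprivation therefore removes the acceptor of all 5 enzymes, whereas antimycin A, an inhibitor of the bc1 complex, blocks the route from ubiquinone and leaves the route from cytochrome c to oxygen.

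Transcript levels were measured on 227 two-color arrays in strain JM43, a MATα haploid with functional mitochondrial DNA and auxotrophic mutations in LEU2, HIS4, TRP1 and URA3, in batch fermentors, and time was counted in generations after each shift. Wild-type cells in galactose medium were treated with 1 μM antimycin A in air for 0 to 3 generations (33 arrays) and then deprived of oxygen with antimycin A still present for 0.04 to 3 generations (30 arrays). Wild-type cells were shifted to anaerobiosis without inhibitor for 0 to 6 generations in glucose medium (41 arrays) or in galactose medium (42 arrays), and cells that had spent 6 generations without oxygen were re-aerated in glucose (33 arrays) or galactose (33 arrays). An msn2/4 mutant, which lacks both stress-response activators Msn2 and Msn4, was shifted to anaerobiosis in galactose and sampled at 5 time points from 0 to 2 generations (15 arrays). The study's methods give a semi-synthetic galactose medium with Tween 80 and ergosterol, a source of the lipids that yeast cannot make without oxygen, for the antimycin A cultures. Gas without oxygen was nitrogen with a little CO2. Every group had 3 arrays except 0.38 generations in glucose, which had 2. The study's methods say that each antimycin A series was made up from a pair of fermentor runs sampled at alternate time points and was repeated in triplicate, but the labels do not tie an array to a run. For the other series nothing says whether replicates were separate cultures, so p-values there measure only the spread between these arrays.

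Each value is read as the log2 ratio of the sample (Cy3) to a reference RNA (Cy5). The reference pooled RNA from a whole series for most arrays and was made from a mixture of anaerobic and re-aerated cells for the antimycin A arrays, and the glucose re-aeration arrays are labelled with the galactose reference. Levels were therefore compared with the control of the same series only, and series were compared through their changes. The comparisons with wild-type anaerobiosis in galactose share its arrays. The control was 0 generations, or 6 generations for re-aeration and 3 generations of antimycin A in air for anaerobiosis with antimycin A. The labels give antimycin A for the 0-generation arrays of antimycin A in air too. The study's methods say that this control was harvested before the inhibitor was added, and it was read as untreated here. Array medians lay between −0.08 and 0.09, so a change in total mRNA per cell could not be seen. A change or a difference between treatments was called where limma's p, adjusted by Holm's method over all genes at a time point, did not exceed 0.01, and the SE beside a change comes from that fit. MSN2 lay between −5.68 and −3.86 on the 15 arrays of the mutant and between −0.50 and 0.53 on the 42 wild-type galactose arrays, which fits the labels and sets the direction of the ratio. MSN4 was lower on the mutant arrays too, at −3.32 to −1.30 against −0.61 to 0.33. Early and late arrays of a series could run in opposite directions against the pooled reference (lowest Pearson r −0.53 over all genes). Replicate arrays correlated with a median r of 0.81 to 0.95 in the 7 series.

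Anaerobiosis in galactose brought 3 kinds of change. NDE1, for the external NADH dehydrogenase, fell early and without a rise. NDI1, CYB2 and DLD1 first rose within the first 0.13 generations and then fell below their aerobic level, where they stayed for 6 generations. NDE2, for the other external NADH dehydrogenase, had no called change. In all, 4 of the 5 genes were called at 1 or more time points, where 43.3% of all genes were, and 44 of their 65 tests were called, where 13.1% of all tests were.

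NDE1 had log2 ratios of −4.12, −3.41 and −4.17 after 3 generations of anaerobiosis, against 1.63, 1.48 and 1.80 in the aerobic control. The groups stood far apart, and the change of −5.54 (SE 0.17, adjusted p = 7.85e-23) was a 46.4-fold decrease. It had not begun at 0.04 generations (1.95, 1.65 and 1.84; change 0.18, adjusted p = 1). At 0.08 generations the 3 arrays (1.01, 1.20 and 1.28) were below all 3 controls, but the change of −0.48 (SE 0.17, adjusted p = 1) was not called. The first call was at 0.13 generations, with −0.02, 0.24 and 0.14 and a change of −1.52 (SE 0.17, adjusted p = 1.01e-06), and all 11 time points from then on were called. By 0.25 generations the change had reached −2.79, by 1 generation −4.17 and by 6 generations −5.31, so most of the decrease was reached within the first generation.

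NDI1, for the internal NADH dehydrogenase, ran a different course. Its log2 ratios were 1.57, 1.47 and 1.42 at 0.08 generations, against 0.43, 0.31 and 0.09 in the control, an increase of 1.21 (SE 0.09, adjusted p = 1.16e-10). Calls of an increase were limited to 0.04, 0.08 and 0.13 generations. The call at 0.04 generations was lost without any 1 replicate and that at 0.13 generations without replicate 2 or 3, and with only the groups compared in the fit none of these increases, nor those of DLD1, was called. By 0.19 generations the arrays (0.23, 0.08 and −0.11) overlapped with the control, and calls of a decrease ran from 0.38 to 6 generations. The lowest point was 4 generations, with −1.93, −1.84 and −1.90 and a change of −2.17 (SE 0.09, adjusted p = 4.59e-18), a 4.5-fold decrease. Its replicates were close together, with an SD within time points of 0.11, where the median over all genes was 0.14.

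CYB2, for L-lactate dehydrogenase, made the widest swing of the 5 in galactose. It reached 2.19, 1.93 and 1.94 at 0.04 generations and 2.18, 1.94 and 2.10 at 0.08 generations, against −0.03, 0.39 and 0.17 in the control. Those increases were 1.85 (SE 0.27, adjusted p = 0.000436) and 1.90 (SE 0.27, adjusted p = 0.000214), so that CYB2 was about at its peak at the first time point taken. At 0.13 generations (0.53, 0.62 and 0.52) it was just above the control arrays, a change of 0.38 that was not called. By 0.19 generations the change was −1.75, and at 3 generations the arrays stood at −4.75, −3.61 and −4.39, a change of −4.42 (SE 0.27, adjusted p = 1.39e-13). At 6 generations the replicates spread from −4.26 to −2.40, and leaving out single replicates removed the calls at 0.04 and 0.08 generations (replicates 1 and 3), at 0.19 generations (replicates 1 and 3) and at 0.25 generations (replicate 3).

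DLD1, for D-lactate dehydrogenase, rose more slowly than CYB2. It stood at 1.79, 1.70 and 1.36 at 0.13 generations, against 0.13, 0.40 and 0.23 in the control, an increase of 1.36 (SE 0.13, adjusted p = 2.89e-08). All 3 arrays at 0.19 generations (1.11, 0.76 and 0.88) were still above the control, though the change was not called (adjusted p = 0.0622). Calls of a decrease ran from 0.5 to 6 generations, with the lowest mean at 2 generations (−1.64, −1.65 and −1.57), a change of −1.87 (SE 0.13, adjusted p = 6.32e-12). The first called decrease was at 0.13 generations for NDE1, 0.19 for CYB2, 0.38 for NDI1 and 0.5 for DLD1. Those of NDI1 and DLD1 were lost without replicate 2, and the increase of DLD1 at 0.04 generations without any 1 replicate.

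NDE2 stood at 0.01, 0.19 and 0.43 after 3 generations of anaerobiosis in galactose, against 0.64, 0.04 and −0.50 in the control. Its control arrays were widely spread, and at none of the 13 time points did the arrays stand clear of them. The largest change was at 0.04 generations (−1.12, −0.70 and −0.49), a change of −0.83 (SE 0.19, adjusted p = 0.799). At 0.13 generations the arrays (0.63, 0.68 and 0.77) were 0.64 above the control mean, also not called. By the method of Benjamini and Hochberg both of these time points passed 0.01. NDE1 and NDE2 are paralogues and the probe sequences were not used here, so cross-hybridization was not tested. At 3 generations, when the change of NDE1 was −5.54, the value of NDE2 differed from its control by 0.15 (SE 0.19).

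In glucose medium, which represses many respiratory genes, the fall came without the early rise. The same 4 genes fell and 0 rose, in a series where 15.3% of all genes fell at 1 or more time points. Of the 65 tests of the 5 genes 39 were called, against 9.44% of all tests. The difference between media, tested gene by gene on the changes, was called for NDI1, CYB2 and DLD1 and not for NDE1 or NDE2 (12 of 65 tests, against 7.27% of all tests), and in all 12 the change in glucose was the more negative. When single replicate numbers were left out, 3 to 8 differences were called, and those of NDI1 at 0.08 and 0.13 generations were called each time.

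NDI1 stood at 0.28, 0.39 and 0.39 after 0.08 generations in glucose, against 1.36, 1.10 and 1.32 in the glucose control, a change of −0.91 (SE 0.13, adjusted p = 0.000514). That call was lost when any 1 of the 3 replicates was left out, with quantile normalization, with a 2-fold limit and with only the groups compared in the fit. At the same time NDI1 peaked in galactose, and the difference between the media was −2.12 (SE 0.16, adjusted p = 1.59e-15). The difference was called at 9 of 13 time points, from 0.04 to 0.25 generations and again from 3 to 6 generations. At 4 generations NDI1 had changed by −3.21 in glucose and by −2.17 in galactose.

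CYB2 stood at 0.56, 0.83 and 0.75 after 0.08 generations in glucose, against 2.58, 1.64 and 2.01 in the glucose control. No array of that time point reached its control, but the change of −1.36 (SE 0.32, adjusted p = 0.952) was not called by itself. Its difference from the rise in galactose was −3.26 (SE 0.43, adjusted p = 1.33e-06), and that at 0.13 generations was −3.07 (SE 0.43, adjusted p = 7.76e-06). Both calls were lost without replicate 1 or 3. From 0.13 generations on, CYB2 was called lower at every time point in glucose, with changes between −2.69 and −4.33, the call at 0.13 generations being lost without replicate 1 or 3, and from 0.5 generations on the media differed by less than 1 log2 unit.

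DLD1 stayed near its glucose control through 0.13 generations (0.22, 0.88 and 1.15, against 1.05, 0.86 and 1.17), where the 3 replicates differed by nearly 1 log2 unit. The difference from galactose at that point, −1.64 (SE 0.26, adjusted p = 0.000225), was the 1 called of 13, and it was lost without replicate 1 or 2. The first called decreases, at 1 and 2 generations, were lost without replicate 2 or 3. After 6 generations DLD1 stood at −1.82, −1.85 and −2.05, a change of −2.93 (SE 0.22, adjusted p = 1.39e-10). NDI1 and DLD1 both stepped down late in glucose. The change of NDI1 was −1.62 at 2 generations and −2.97 at 3 generations, and that of DLD1 was −1.47 and −2.64.

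NDE1 fell in both media. It stood at −4.91, −5.16 and −4.78 after 4 generations in glucose, against 1.92, 1.60 and 1.52 in the glucose control, and the change of −6.63 (SE 0.37, adjusted p = 2.70e-14) was a 98.9-fold decrease, the largest of any of the 5 genes in any anaerobic series. The first call was at 0.19 generations (lost without replicate 1 or 3), against 0.13 generations in galactose, and the fall was then steeper, with changes of −5.53 in glucose and −3.58 in galactose at 0.5 generations. No difference between the media was called for NDE1. The nearest were −1.95 (SE 0.42, adjusted p = 0.0865) at 0.5 generations and −2.03 (SE 0.44, adjusted p = 0.119) at 0.38 generations, where glucose had 2 arrays. Both were called by the method of Benjamini and Hochberg and with time points up to 3 generations only, and that at 0.38 generations with only the groups compared. Replicates of NDE1 in glucose were uneven late in the series, as at 5 generations (−2.72, −4.97 and −4.24). NDE2 changed by −0.54 to −0.16 in glucose, and none of its 13 changes there was called (0 also by the method of Benjamini and Hochberg).

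**Figure D1:**
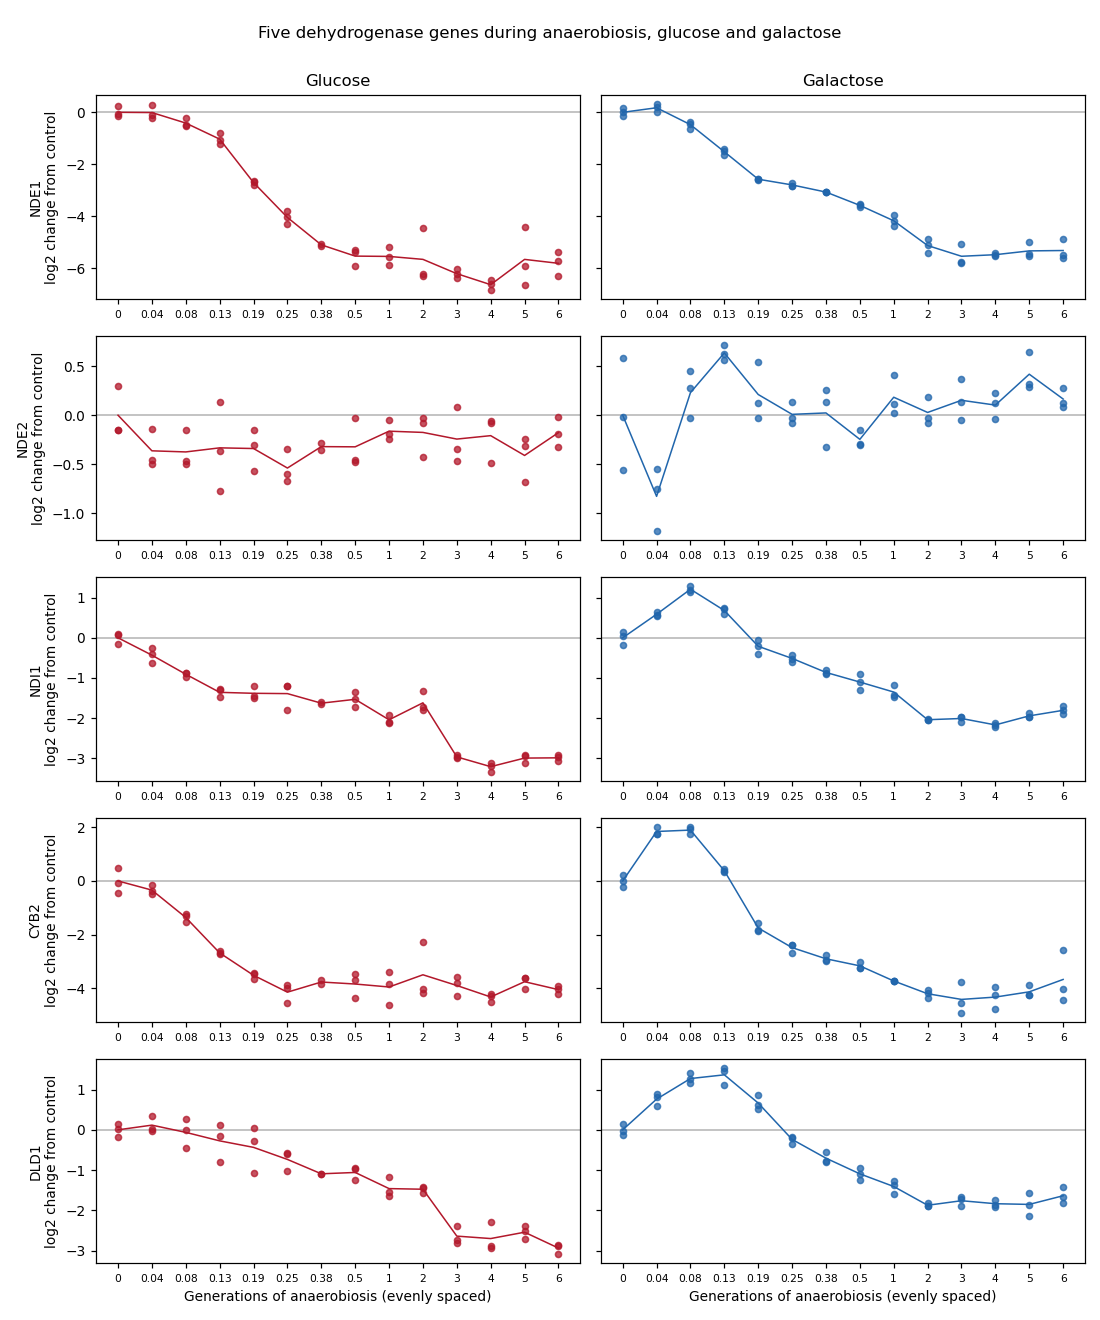
Change in the log2 ratio from the mean of the aerobic control for the 5 genes during anaerobiosis in glucose (left) and galactose (right), by generations of anaerobiosis on an evenly spaced axis. Points are single arrays and lines join the means. NDI1, CYB2 and DLD1 peak above 0 before 0.19 generations in galactose, by 1.21 to 1.90, whereas in glucose DLD1 reaches 0.12 and the means of NDI1 and CYB2 stay below 0. NDE1 falls by over 5 log2 units in both. The means of NDE2 lie between −0.54 and −0.16 in glucose and between −0.83 and 0.64 in galactose, without a call.

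Antimycin A in air, which stops respiration while oxygen is present, raised 3 of the 5 genes and lowered 1. DLD1 rose for the first 0.5 generations, NDI1 and NDE2 were called up at 1 time point each, and NDE1 was called down at 2. CYB2 was high on most arrays from 0.13 generations on but not on all, and was not called in the main fit. Together 4 of the 5 genes were called at 1 or more time points, where 23.6% of all genes were, and 10 of 50 tests were called, where 8.06% of all tests were. None of the 5 was called at 1, 2 or 3 generations (1 test, NDE1 at 1 generation, by the method of Benjamini and Hochberg or with quantile normalization). Without replicate 3 the 10 calls became 3, and the calls of DLD1 at 0.25 and 0.38 generations were the ones made whichever replicate number was left out. Against anaerobiosis without the inhibitor, 24 of 50 differences were called, for NDE1, NDI1, CYB2 and DLD1 and all in the more positive direction, where 4.63% of all tests were. Without replicate 2 these became 15.

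DLD1 stood at 2.57, 2.78 and 2.59 after 0.25 generations with antimycin A in air, against 0.91, 0.81 and 0.85 before its addition. The increase of 1.79 (SE 0.15, adjusted p = 1.83e-08) was 3.45-fold, and calls ran from 0.08 to 0.5 generations. At 3 generations (0.70, 1.08 and 1.20) the arrays overlapped with the control again. Up to 0.19 generations the course was close to that in anaerobiosis, with differences between antimycin A in air and anaerobiosis of at most 0.68 log2 units, none of them called. From 0.25 generations on the difference was called at each time point and was largest at 0.38 generations, 2.37 (SE 0.20, adjusted p = 2.79e-13).

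NDI1 stood at 1.87, 1.50 and 2.10 after 0.08 generations with antimycin A in air, against 0.28, 0.68 and 0.71 before its addition, an increase of 1.27 (SE 0.16, adjusted p = 4.87e-05). In anaerobiosis the increase at that time was 1.21, and the difference of 0.06 was smaller than its SE of 0.18. After 1 generation NDI1 was back at its control in air (0.49, 0.51 and 0.58; change −0.03) while it fell in anaerobiosis. The difference was called from 0.25 to 3 generations (from 2 generations on without replicate 1, at 1 generation and later without replicate 2, and not at 0.38 generations without replicate 3 or 4) and reached 2.02 (SE 0.18, adjusted p = 2.01e-12) at 2 generations.

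NDE1 stood at −0.25, −0.28 and −0.18 after 0.19 generations with antimycin A in air, against 1.41, 1.06 and 1.00 before its addition, a change of −1.40 (SE 0.16, adjusted p = 9.26e-06). Calls were made at 0.13 and 0.19 generations. All arrays from 0.25 to 2 generations stayed below the control without a call (changes from −0.87 to −0.64), and by the method of Benjamini and Hochberg or with quantile normalization those at 0.25, 0.38, 0.5 and 1 generation were called. At 3 generations the groups overlapped (0.52, 1.30 and 0.44), with a change of −0.40 (SE 0.16, adjusted p = 1). The decrease in air was smaller than that in anaerobiosis, and the difference between the treatments was called from 0.25 generations on and grew to 5.13 (SE 0.23, adjusted p = 2.48e-25) at 3 generations.

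NDE2 stood at 1.41, 0.84 and 1.26 after 0.25 generations with antimycin A in air, against 0.02, −0.47 and −0.64 before its addition. The increase of 1.53 (SE 0.21, adjusted p = 0.000288) was 2.9-fold, and the arrays were clear of the control at each time point from 0.08 to 0.5 generations. The difference from anaerobiosis at 0.25 generations, 1.52 (SE 0.29, adjusted p = 0.0123), was just short of a call. By 1 generation NDE2 was back among the control values (0.10, −0.53 and −0.17).

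**Figure D2:**
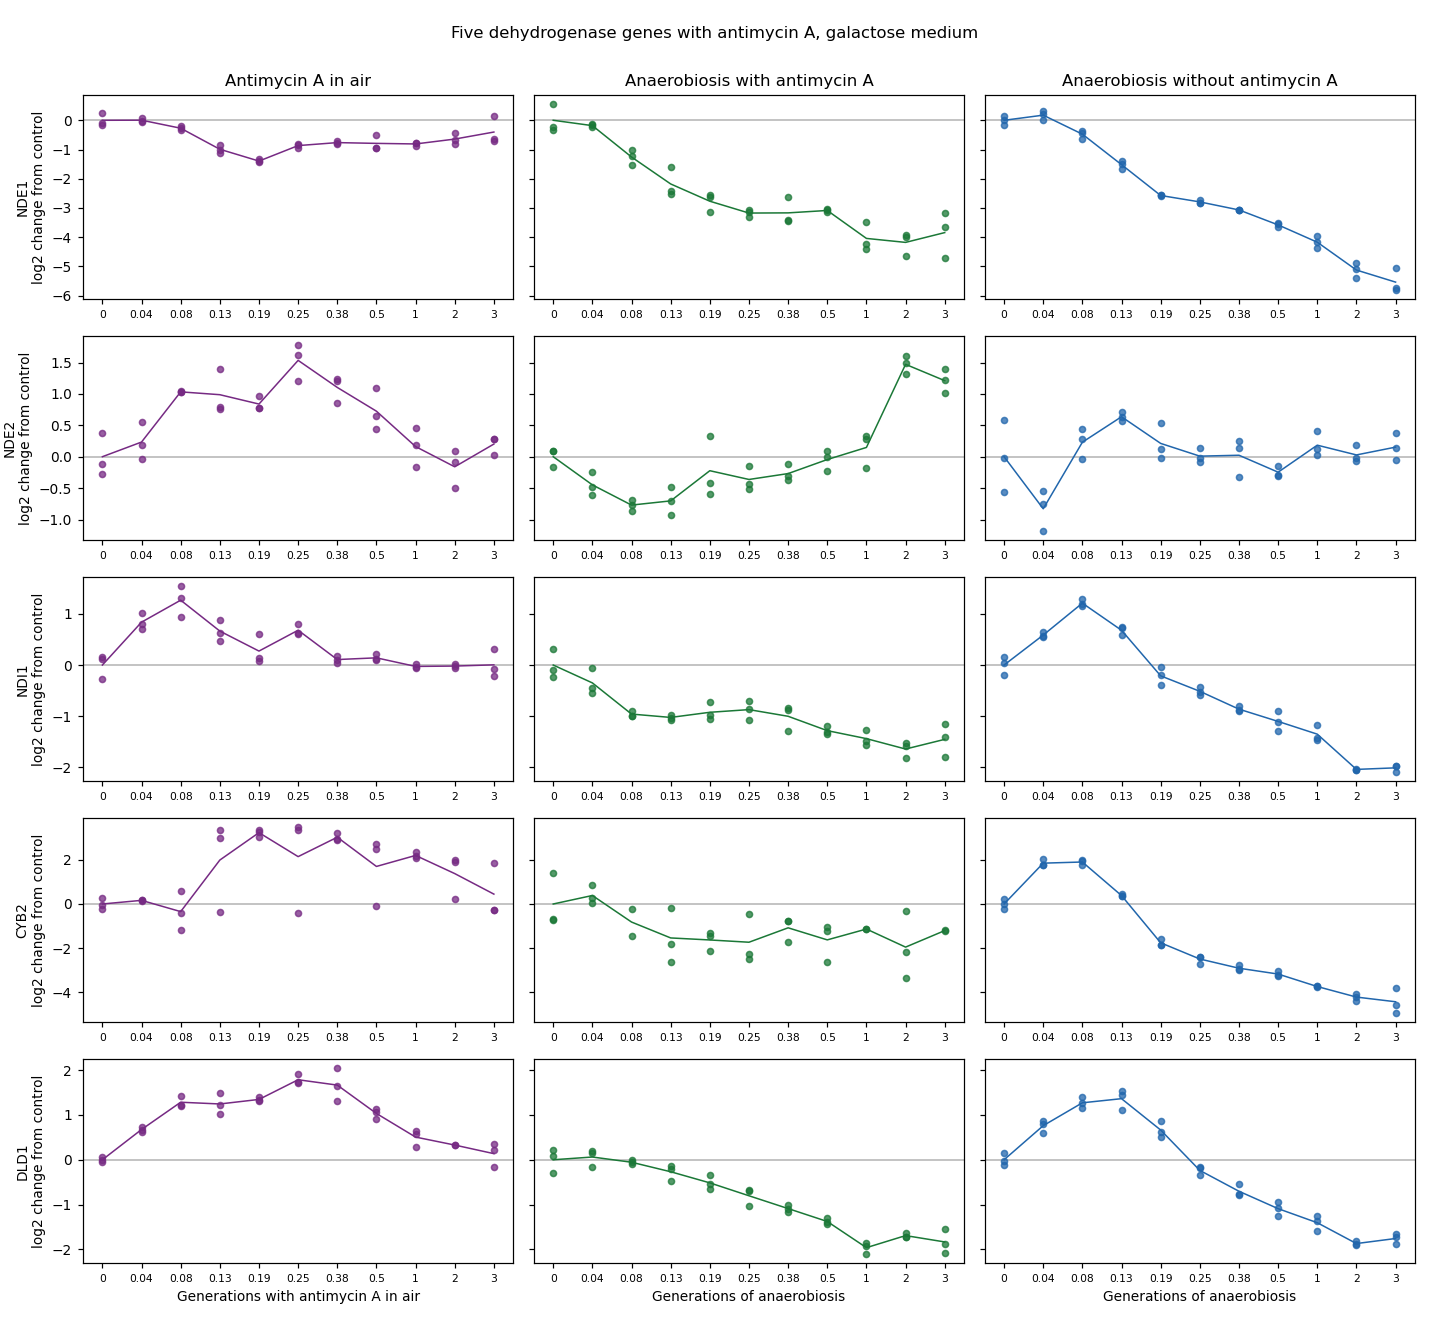
Change in the log2 ratio from the mean of the control for the 5 genes with antimycin A in air (left), during anaerobiosis with antimycin A (middle) and during anaerobiosis without it (right), in galactose and by generations on an evenly spaced axis. Points are single arrays, lines join the means, and 0 in the middle column is the control at 3 generations of antimycin A in air. The early rise of NDI1 and DLD1 is in the left and right columns, the lasting fall in the middle and right columns, and CYB2 in air splits into high and low arrays.

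CYB2 fell into separate levels among the arrays of antimycin A in air. At 0.13, 0.25, 0.5 and 2 generations replicate 1 stood at −1.13, −1.16, −0.85 and −0.56, while the other arrays of those time points lay between 1.14 and 2.71. At 0.19, 0.38 and 1 generation all 3 arrays were high (2.51, 2.27 and 2.60 at 0.19 generations), against −0.51, −0.80 and −1.00 before the addition of antimycin A. At 3 generations replicates 1 and 2 were low and the other array was high (−1.03, −1.02 and 1.09). The low arrays were within or just below the range of the control, and no array of these time points lay between the levels.

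The SD of CYB2 within time points was 1.16 in this series, ranked 2 of 5603 genes from the largest (median 0.20), while in anaerobiosis without antimycin A it was 0.35. On the same arrays the other members did not split: at 0.25 generations DLD1 had 2.57, 2.78 and 2.59 and NDI1 had 1.19, 1.16 and 1.35, with replicate 1 given first. Over all genes replicate 1 correlated with the other 2 arrays at 0.88 and 0.89 at 0.25 generations and at 0.79 and 0.80 at 2 generations. Those other 2 arrays correlated with each other at 0.97 at 0.25 generations and at 0.82 at 2 generations. CYB2 was the 1 gene of 5302 whose replicate 1 lay at least 1 log2 unit beyond both other arrays, on the same side, at all 4 of those time points, a count made after the split was seen. What set the low arrays apart was not tested.

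With all arrays the largest change of CYB2 in air was 3.23 (SE 0.85, adjusted p = 1), at 0.19 generations, and 0 of 10 time points were called (2 at 0.01 by the method of Benjamini and Hochberg, 0.19 and 0.38 generations). With only the groups compared in the fit, which leaves out the split time points, the change at 0.19 generations was called (adjusted p = 4.49e-05). Without the arrays of replicate 1 CYB2 was called up at 0.13, 0.19, 0.25 and 0.38 generations, with an increase of 3.54 at 0.25 generations (SE 0.42, adjusted p = 0.000812). Replicate 1 held the low arrays of 0.13 and 0.25 generations, so the calls there follow in part from which arrays were left out. At 0.19 generations replicate 1 was high (2.51), and 0.38 generations had no array of replicate 1. Leaving out the low arrays of other time points still made the SE smaller, as from 0.85 to 0.42 at 0.19 generations. These calls are therefore not separate support for a rise. Against anaerobiosis, where CYB2 had fallen by then, antimycin A in air gave a more positive change at 6 time points between 0.19 and 3 generations, the largest 5.93 (SE 0.89, adjusted p = 7.42e-05) at 1 generation. All 6 of these calls were lost when replicate 2 or replicate 3 was left out, and that at 3 generations also without replicate 4. The calls at 0.5 and 3 generations were lost with only the groups compared in the fit and with time points up to 3 generations only. Without replicate 1, which held low arrays, all 6 were kept. At 0.04 and 0.08 generations CYB2 had not risen in air (−0.58, −0.59 and −0.64 at 0.04 generations), when it was near its peak in anaerobiosis. Those differences, −1.68 and −2.24, were not called.

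**Figure D3:**
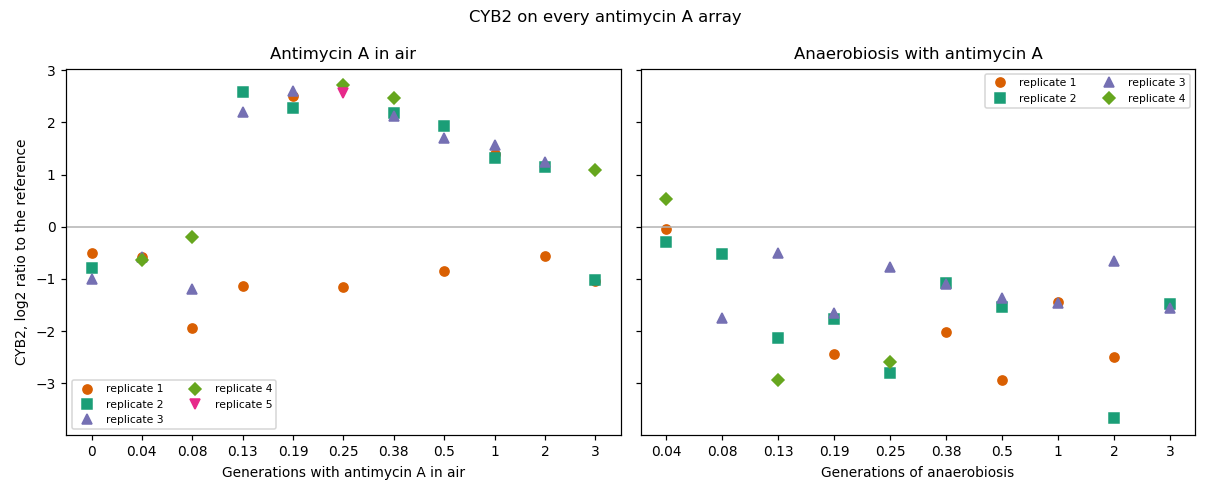
Log2 ratio of CYB2 to the reference on each array of antimycin A in air (left) and of anaerobiosis with antimycin A (right), by generations on an evenly spaced axis, with symbols for the replicate numbers of the labels. In air, replicate 1 lies between −1.16 and −0.56 at 0.13, 0.25, 0.5 and 2 generations while the other arrays of those time points lie above 1.

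Anaerobiosis with antimycin A, reached after 3 generations with the inhibitor in air, lowered NDE1, NDI1 and DLD1 with no early rise and raised NDE2 late. These 4 of the 5 genes were called at 1 or more time points, where 17.8% of all genes were, and 21 of 50 tests were called, where 4.85% of all tests were. The arrays of the control were uneven over all genes (r of 0.46, 0.61 and 0.78 between pairs), and 21 calls became 12 when replicate 2 was left out. With 0 generations of antimycin A in air as the control, all 21 calls were kept and 1 was added. Against anaerobiosis without the inhibitor 6 of 50 differences were called, where 6.71% of all tests were, and 3 without replicate 2.

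NDE1 stood at −3.16, −3.87 and −3.24 after 2 generations of anaerobiosis with antimycin A, against 0.52, 1.30 and 0.44 in the control. The change of −4.18 (SE 0.31, adjusted p = 1.34e-09) was an 18.1-fold decrease, and calls ran from 0.13 to 3 generations, of which that at 0.13 generations was lost without replicate 1, 2, 3 or 4 and with only the groups compared in the fit. The difference from anaerobiosis without antimycin A was within 1 log2 unit through 2 generations. At 3 generations it was 1.69 (SE 0.36, adjusted p = 0.0742), which passed 0.01 by the method of Benjamini and Hochberg only.

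NDI1 stood at −0.43, −0.33 and −0.44 after 0.08 generations of anaerobiosis with antimycin A, against 0.33, 0.88 and 0.47 in the control, a change of −0.96 (SE 0.16, adjusted p = 0.0131) just short of a call. At that time NDI1 had risen in anaerobiosis without the inhibitor, and the difference was −2.17 (SE 0.18, adjusted p = 3.52e-13). At 0.13 generations it was −1.70 (SE 0.18, adjusted p = 2.69e-09), and no later difference was called. The lowest mean was at 2 generations, −1.26, −1.02 and −0.97, a change of −1.64 (SE 0.16, adjusted p = 5.26e-07).

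DLD1 stood at 0.52, 0.79 and 0.86 after 0.13 generations of anaerobiosis with antimycin A, against 0.70, 1.08 and 1.20 in the control, so the groups overlapped where DLD1 was at its peak without the inhibitor. The difference at that time was −1.63 (SE 0.19, adjusted p = 4.20e-08), with further calls at 0.08 and 0.19 generations that were lost without replicate 2 or 3. DLD1 then fell steadily and was called lower from 0.38 generations on (from 0.5 generations without replicate 2 or 3), with −1.11, −0.88 and −0.93 at 1 generation and a change of −1.96 (SE 0.14, adjusted p = 2.51e-10).

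NDE2 stood at 1.44, 1.16 and 1.33 after 2 generations of anaerobiosis with antimycin A, against −0.33, −0.07 and −0.08 in the control. The increase of 1.47 (SE 0.18, adjusted p = 4.54e-05) was 2.77-fold, and at 3 generations it was 1.21 (SE 0.18, adjusted p = 0.00157). The call at 2 generations was lost without replicate 2, that at 3 generations without replicate 2, 3 or 4 and with quantile normalization, and both with only the groups compared in the fit. At 0.08 and 0.13 generations all 6 arrays had been below the control (changes of −0.77 and −0.70, not called). The difference from anaerobiosis without antimycin A was called at 2 generations, 1.44 (SE 0.27, adjusted p = 0.00968), and that call was lost without replicate 1, 2 or 4, with the replicate block, with quantile normalization, with only the groups compared in the fit and with time points up to 3 generations only.

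CYB2 gave no call during anaerobiosis with antimycin A, and its control was the split group of −1.03, −1.02 and 1.09. It stood at −2.80, −0.77 and −2.59 after 0.25 generations, a change of −1.73 (SE 0.69, adjusted p = 1), and 3 of its 30 values were missing. None of the 10 time points stood out by the method of Benjamini and Hochberg either. The SD within time points was 0.90, ranked 8 of 5598 genes from the largest.

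In the msn2/4 mutant no early rise of CYB2 or DLD1 in anaerobiosis was called, and the late fall of NDE1 was smaller than in the wild type. The design had 4 time points after the shift. In the mutant by itself 3 of the 20 tests were called, all of them decreases at 2 generations (NDE1, NDI1 and CYB2), where 2.22% of all tests were called. The difference between the mutant and the wild type was called in 5 of 20 tests, where 2.96% of all tests were. These calls depended on single replicates: leaving out 1 replicate number kept 0 or 1 of the 3 calls in the mutant and 0 or 1 of the 5 differences, with 0 differences without replicate 3.

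CYB2 stood at −1.20, −0.94 and −0.29 after 0.08 generations in the mutant, against 0.43, 0.04 and 0.62 in its control, so that every array was below the control when the wild type was 1.90 above its own. The change in the mutant was −1.17 (SE 0.32, adjusted p = 1) and the difference between the strains was −3.07 (SE 0.41, adjusted p = 1.82e-05). At 0.04 generations the mutant arrays (0.65, 0.52 and 0.80) overlapped with the control, and the difference of −1.55 (SE 0.41, adjusted p = 1) was not called. At 2 generations CYB2 had fallen in the mutant (−3.51) as in the wild type (−4.21).

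DLD1 stood at −0.29, 0.25 and 0.17 after 0.08 generations in the mutant, against 0.11, 0.16 and 0.44 in its control. The difference from the wild type was −1.46 (SE 0.26, adjusted p = 0.00813) at this time and −1.67 (SE 0.26, adjusted p = 0.000623) at 0.19 generations, where all mutant arrays (−1.15, −0.58 and −0.58) were below the control and all wild-type arrays above theirs. NDI1 stood at 1.35, 1.00 and 0.89 at 0.04 generations in the mutant, 0.61 above its control without a call, where the wild type was 0.59 above its own. At 0.08 generations NDI1 was at 0.49, 0.62 and 0.86 in the mutant, a difference from the wild type of −1.02 (SE 0.18, adjusted p = 0.00481).

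NDE1 stood at −1.85, −2.15 and −1.51 after 2 generations in the mutant, against 1.33, 1.38 and 1.48 in its control, a change of −3.23 (SE 0.25, adjusted p = 1.44e-05) where the wild type had changed by −5.12. The difference was 1.89 (SE 0.28, adjusted p = 0.000157). NDE2 went the other way from its paralogue: it stood at 2.62, 1.23 and 2.09 after 0.08 generations in the mutant, against 0.11, −0.14 and 0.20 in its control, and at all 4 time points every mutant array was above the control. These time points share the same control arrays, and how many of all genes stood clear of their control in this way was not counted. The replicates were far apart, and the increase of 1.93 (SE 0.39, adjusted p = 0.911) was not called by Holm's method while it was by that of Benjamini and Hochberg (adjusted p = 0.0012). The differences between the strains, 1.83 at 0.04 generations and 1.70 at 0.08 generations, were not called either.

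**Figure D4:**
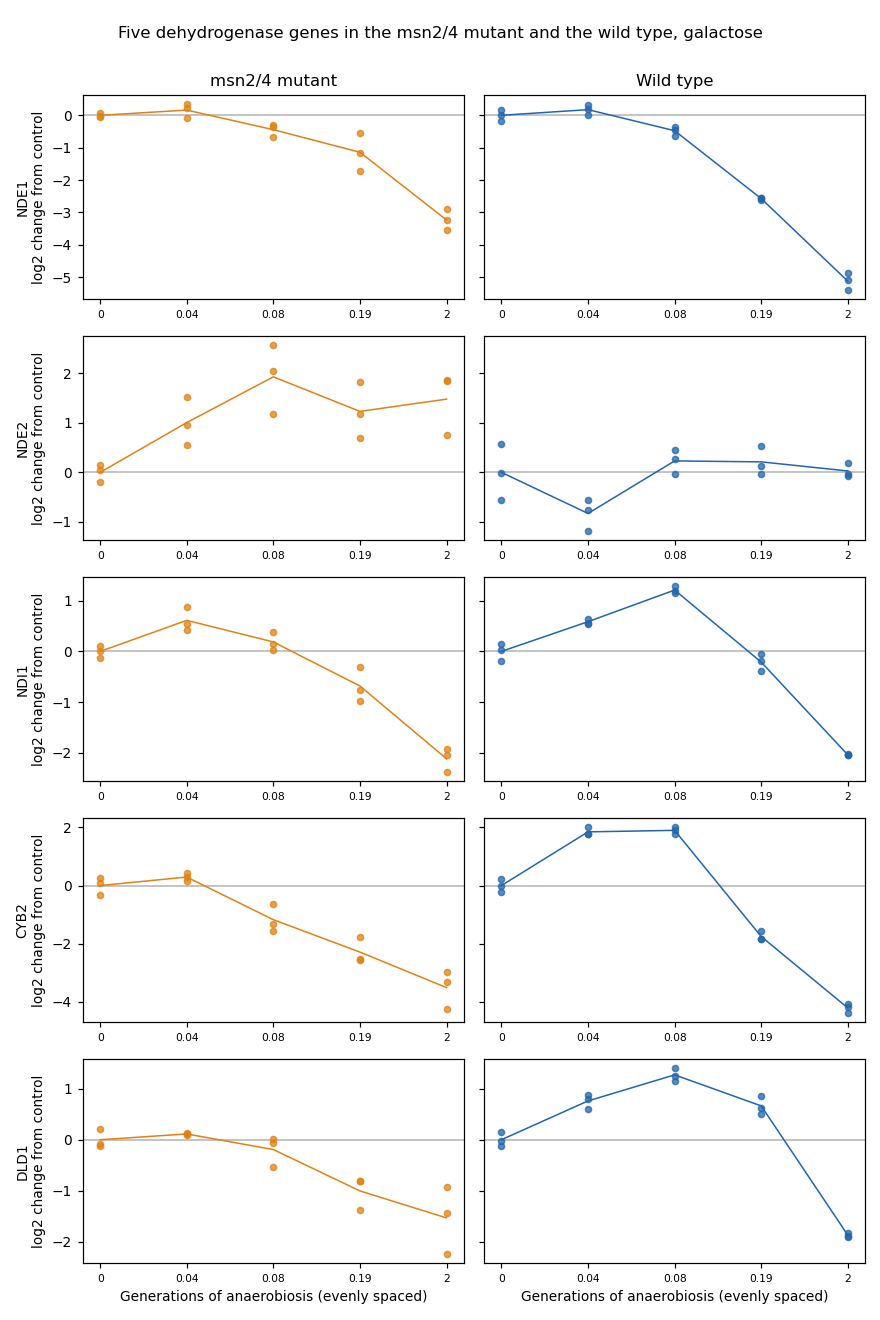
Change in the log2 ratio from the mean of the aerobic control for the 5 genes in the msn2/4 mutant (left) and the wild type (right) during anaerobiosis in galactose, at the 5 time points they share, evenly spaced. Points are single arrays and lines join the means. CYB2 is at −1.17 in the mutant and at 1.90 in the wild type at 0.08 generations, and NDE2 lies above its control in the mutant.

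Re-aeration raised the same 4 genes in both media, within 0.06 generations of the return of air. NDE1, NDI1, CYB2 and DLD1 were called up in glucose (37 of 50 tests of the 5 genes, against 5.78% of all tests) and in galactose (41 of 50 tests with NDE2 included, against 5.91% of all tests), and none was called down. In galactose 4 of them were called at 0.03 generations of air, the first time point, and in glucose NDI1 was. The first of these calls was lost for DLD1 in galactose without any 1 replicate and for NDI1 in galactose without replicate 1, and without replicate 2 neither CYB2 nor DLD1 was called at 6.06 generations in glucose. The media differed in 3 of 50 tests, where 2.61% of all tests differed.

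NDE1 stood at 2.31, 2.65 and 2.15 at 7.6 generations in glucose, against −2.90, −2.79 and −3.74 at the end of anaerobiosis, an increase of 5.51 (SE 0.25, adjusted p = 1.30e-15). In galactose it stood at 0.65, 0.59 and 0.82, against −4.14, −4.25 and −4.96, an increase of 5.14 (SE 0.16, adjusted p = 1.40e-18) or 35.2-fold. It was already 4.23 above the anaerobic control at 6.06 generations in galactose and 4.71 above it at 6.1 generations. The largest difference between the media, −0.95 at 6.03 generations, was not called. The increase at 7.6 generations in galactose can be set beside the change of −5.31 after 6 generations of anaerobiosis in the separate anaerobic series. The 2 series have separate controls, so a return to the aerobic level was not tested, and the other genes were not compared in this way.

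CYB2 made the largest rise in galactose and rose less than NDE1 in glucose. In glucose it stood at 3.04, 2.56 and 2.56 at 6.13 generations, against −1.94, −2.28 and −1.63 at the end of anaerobiosis, an increase of 4.67 (SE 0.34, adjusted p = 3.13e-10). In galactose it stood at 1.26, 1.64 and 1.58 at 6.1 generations, against −5.25, −5.27 and −5.45, and the increase of 6.81 (SE 0.17, adjusted p = 1.84e-21) was 113-fold. It then settled at changes of 4.65 to 5.26 from 6.2 generations on. The rise was smaller in glucose, with a difference of −2.44 (SE 0.40, adjusted p = 0.000779) at 6.06 generations and of −2.41 (SE 0.40, adjusted p = 0.001) at 6.1 generations. Both calls were lost without replicate 2 or 3.

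NDI1 and DLD1 peaked soon after the return of air and then dropped part of the way. NDI1 stood at 2.66, 2.13 and 1.96 at 6.13 generations in glucose, against −0.21, −0.56 and −0.44 at the end of anaerobiosis, and its change was 2.65 there and 1.35 at 6.3 generations. In galactose it stood at 0.78, 0.57 and 1.02 at 6.1 generations, against −1.41, −1.43 and −1.45, with a change of 2.22 there and 0.96 at 6.3 generations. At 7.6 generations the change was 2.38 in glucose and 1.83 in galactose. The change was larger in glucose at each of the 10 time points, but the difference was called at 6.8 generations only, where it was 1.15 (SE 0.19, adjusted p = 0.00186). That call was lost without any 1 of the 3 replicates.

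DLD1 stood at 1.61, 1.68 and 1.61 at 6.2 generations in glucose, against −2.02, −2.05 and −1.93 at the end of anaerobiosis, an increase of 3.64 (SE 0.26, adjusted p = 2.74e-10). In galactose it peaked at 6.13 generations with 0.77, 0.99 and 1.23, against −2.11, −2.16 and −2.59, an increase of 3.28 (SE 0.12, adjusted p = 2.88e-17). No difference between the media was called for DLD1 with all arrays, while those at 6.8 and 7.6 generations were called without replicate 3. At 7.6 generations in glucose DLD1 stood at 1.58, 1.63 and 0.38. Replicate 3 of 7.6 generations was nearly the same as replicate 3 of 6.6 generations over all genes (r = 0.990, where replicates 1 and 2 gave 0.934 and 0.876). Without either of these 2 arrays the increases of NDE1, NDI1, CYB2 and DLD1 at those time points were still called.

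NDE2 stood at 0.77, 0.92 and 0.63 at 6.13 generations in glucose, against 0.73, 0.72 and 0.96 at the end of anaerobiosis, and 0 of its 10 tests in glucose were called, by Holm's method or by that of Benjamini and Hochberg. In galactose it stood at 0.88, 0.81 and 1.21 at the same time point, against −0.13, −0.43 and −0.13, an increase of 1.20 (SE 0.14, adjusted p = 3.28e-05). That 1 call of NDE2 was lost without replicate 1 or 2 and with only the groups compared in the fit. By 6.3 generations (−0.51, −0.39 and −0.42) its arrays were within or just below the range of the control. The difference between the media at 6.13 generations, −1.23 (SE 0.23, adjusted p = 0.0125), was just short of a call.

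**Figure D5:**
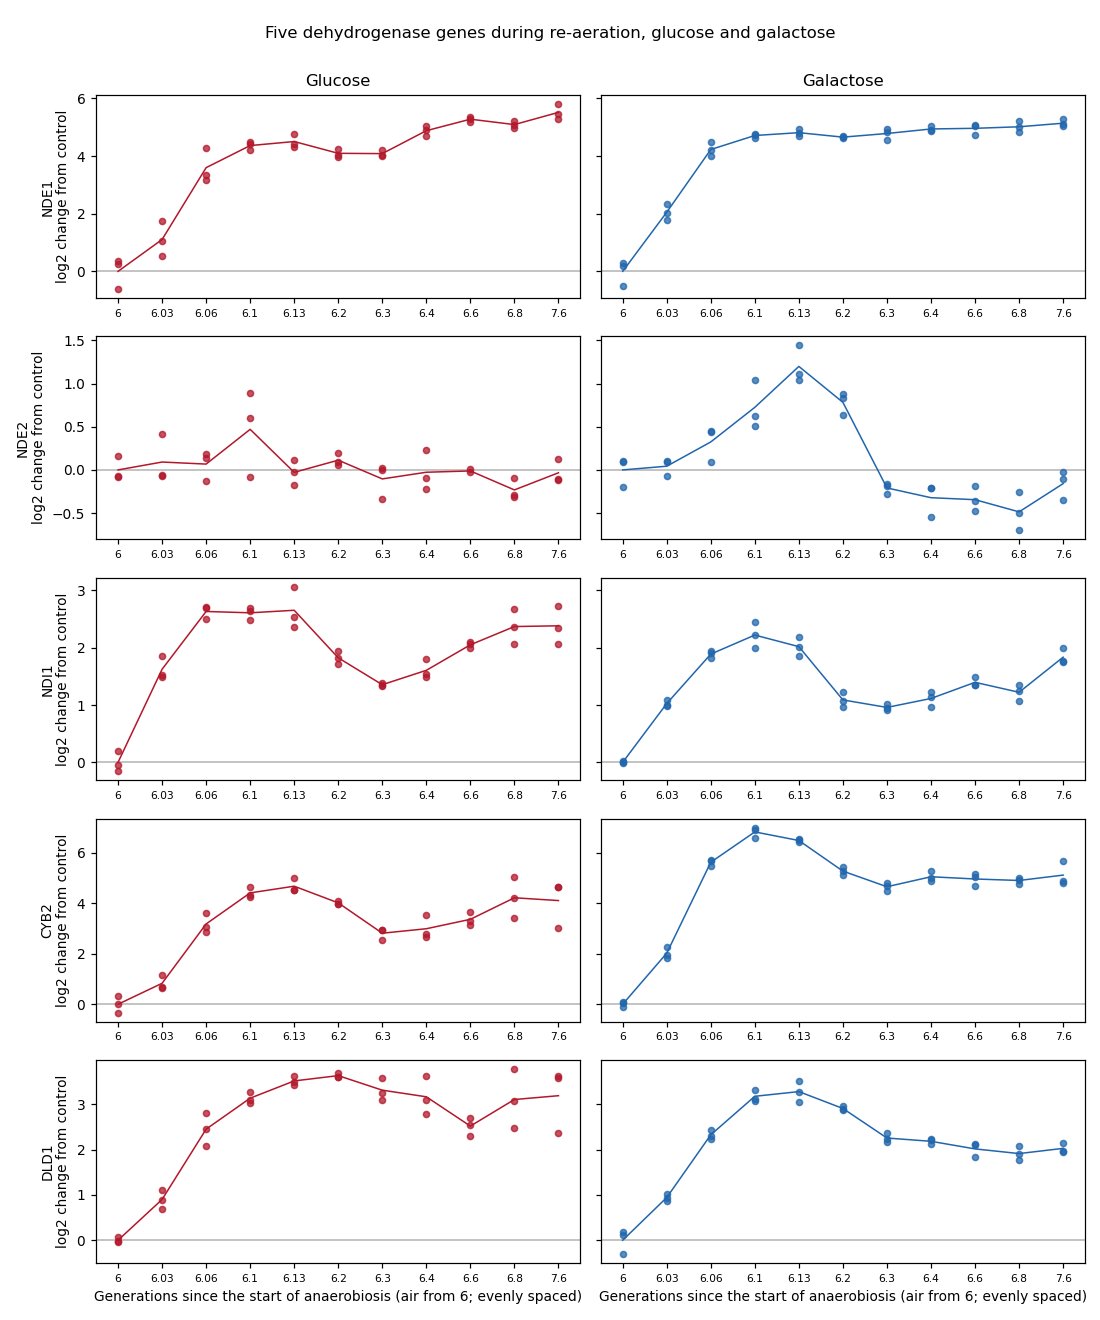
Change in the log2 ratio from the mean at 6 generations of anaerobiosis for the 5 genes after the return of air, in glucose (left) and galactose (right), by generations on an evenly spaced axis. Points are single arrays and lines join the means. NDE1, NDI1, CYB2 and DLD1 rise by 6.06 generations in both media, and NDE2 is 1.20 above its control in galactose at 6.13 generations, a call that was lost without replicate 1 or 2.

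Over the 70 time points other than controls of the 7 series, the mean changes of NDE1, NDI1, CYB2 and DLD1 ran together, with Pearson's r between 0.907 and 0.954 for their 6 pairs. NDE2 correlated with them at 0.040 to 0.153. Time points of a series share their control arrays and their reference, so these values describe likeness only. Among 5515 genes with a value at each point, NDE1 was most like COX12 (r = 0.988), COX5A (0.984), CYC1 (0.983), COX6 (0.982) and COX8 (0.982), which encode cytochrome oxidase subunits and iso-1-cytochrome c. NDI1 was most like MIC27 (0.979), QCR9 (0.975), RIP1 (0.968), OM14 (0.966) and QCR8 (0.964), of which QCR9, RIP1 and QCR8 encode subunits of the bc1 complex. DLD1 was most like SDH7 (0.974), for an assembly factor of succinate dehydrogenase, TSA1 (0.973), for a peroxiredoxin, PUT2 (0.972), for an enzyme of proline breakdown, YME2 (0.971) and MIC27 (0.971). CYB2 was most like HMX1 (0.945), which encodes heme oxygenase, HUL4 (0.940), CYC1 (0.940), YER053C-A (0.937) and MNN14 (0.932). The genes most like NDE2 were less so: YPT53 (0.845), MOH1 (0.826), PRB1 (0.803), SAF1 (0.800) and YNL115C (0.787).

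Other enzymes that feed ubiquinone were GUT2, for the mitochondrial glycerol-3-phosphate dehydrogenase, and SDH1 to SDH4, for succinate dehydrogenase. Values of these related genes are given as the change ± SE at the largest called time point. Counts of genes called at 1 or more time points can be read against all genes, of which 11.4% were called up and 12.3% down with antimycin A in air, 13.1% up and 15.3% down in glucose anaerobiosis, and 21.6% up and 25.8% down in galactose anaerobiosis. On re-aeration 12.9% were called up and 9.06% down in glucose, and 16.1% up and 12.5% down in galactose. With antimycin A in air 2 of these 5 were called up and 0 down, with GUT2 at 2.01 ± 0.21 at 0.25 generations, adjusted p = 1.32e-06. Anaerobiosis lowered GUT2 in every wild-type series, with changes of −1.94 ± 0.16 at 3 generations, adjusted p = 8.27e-09 with antimycin A, −2.76 ± 0.14 at 5 generations, adjusted p = 1.59e-15 in glucose and −2.71 ± 0.13 at 4 generations, adjusted p = 1.92e-16 in galactose. In galactose 4 of the 5 were called up and 4 down, whereas in glucose 0 were called up and 2 down. In galactose 3 of them, GUT2, SDH1 and SDH4, were called in both directions at different times. Re-aeration called 1 of the 5 up in glucose and 4 up and 1 down in galactose. The median change of the list at 6 generations in galactose was −0.66, beside 0.01 for all genes.

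Among genes for cytochrome c and for lactate use, CYC1, the main cytochrome c gene, fell too: it changed by −5.66 ± 0.33 at 4 generations, adjusted p = 1.18e-13 in glucose and by −5.59 ± 0.24 at 5 generations, adjusted p = 3.88e-18 in galactose anaerobiosis. JEN1, for the lactate permease, was called up early with antimycin A in air, by 2.90 ± 0.22 at 0.04 generations, adjusted p = 1.63e-09, and CYC7, the gene for the second cytochrome c, by 2.95 ± 0.22 at 0.08 generations, adjusted p = 6.68e-10. In anaerobiosis JEN1 was called down in glucose (−2.09 ± 0.22 at 4 generations) and galactose (−2.18 ± 0.10 at 5 generations), and also up in galactose at another time. CYC7 was called down without oxygen in glucose (−2.25 ± 0.36 at 0.38 generations) and galactose (−1.30 ± 0.20 at 0.5 generations). On re-aeration CYC7 was called up in glucose (4.45 ± 0.20 at 6.1 generations) and galactose (4.47 ± 0.37 at 6.1 generations), and JEN1 in galactose (2.865 ± 0.126 at 6.1 generations). DLD3, for a cytosolic relative of Dld1, rose with antimycin A in air (2.87 ± 0.13 at 0.25 generations, adjusted p = 3.54e-15) and was called down at another time of that series. It rose in galactose anaerobiosis of the mutant (2.96 ± 0.16 at 0.19 generations, adjusted p = 1.84e-07) and of the wild type (2.65 ± 0.08 at 0.5 generations, adjusted p = 4.49e-22). DLD3 also rose in anaerobiosis in glucose (1.54 ± 0.15 at 0.19 generations, adjusted p = 5.84e-08) and with antimycin A (1.55 ± 0.12 at 0.13 generations, adjusted p = 1.19e-09). It fell on re-aeration in glucose (−1.47 ± 0.11 at 6.6 generations, adjusted p = 2.33e-10) and galactose (−2.13 ± 0.14 at 6.6 generations, adjusted p = 1.50e-10). Of the 5 genes of this list 1 was called up and 4 down in glucose anaerobiosis and 2 up and 4 down in galactose, and on re-aeration 3 were called up and 1 down in glucose and 4 up and 1 down in galactose. The list's median change at 6 generations was −1.45 in glucose (0.07 for all genes) and −1.23 in galactose (0.01 for all genes).

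Genes for the synthesis of ubiquinone moved less evenly (9 of 10 COQ genes measured). COQ2, for the prenyltransferase, fell in anaerobiosis in glucose (−1.73 ± 0.12 at 3 generations, adjusted p = 4.69e-12) and galactose (−1.23 ± 0.10 at 4 generations, adjusted p = 3.17e-10) and rose on re-aeration in glucose (2.43 ± 0.17 at 6.13 generations, adjusted p = 1.32e-10) and galactose (2.19 ± 0.11 at 6.1 generations, adjusted p = 7.86e-14). In galactose anaerobiosis 6 of the 9 were called up and 2 down, and with antimycin A in air 5 were called up and 0 down, with COQ3 at 1.54 ± 0.21 at 0.13 generations, adjusted p = 0.000373. In glucose anaerobiosis 2 were called up and 3 down. The median change of the list at 6 generations was −0.33 in glucose and 0.05 in galactose.

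Among 8 genes for other routes of NADH, GPD2, for a glycerol-3-phosphate dehydrogenase that oxidizes NADH in the cytosol, was called up with antimycin A in air (1.44 ± 0.18 at 0.25 generations, adjusted p = 8.88e-05). It was also called up in anaerobiosis with antimycin A (1.83 ± 0.13 at 0.13 generations, adjusted p = 2.65e-10), in glucose (2.13 ± 0.14 at 0.25 generations, adjusted p = 2.21e-12) and in galactose (2.32 ± 0.10 at 0.5 generations, adjusted p = 2.01e-18). On re-aeration GPD2 was called down in glucose (−1.46 ± 0.11 at 6.2 generations, adjusted p = 5.85e-10) and galactose (−1.23 ± 0.10 at 6.8 generations, adjusted p = 6.56e-09). With antimycin A in air 4 of the 8 were called up and 2 down, and in anaerobiosis 3 up and 3 down in each medium. GPD1 was called up with antimycin A in air (1.32 ± 0.20 at 0.08 generations, adjusted p = 0.00126), in both directions at different times of anaerobiosis with antimycin A (largest 1.85 ± 0.15 at 2 generations, adjusted p = 5.20e-09) and down in anaerobiosis in glucose (−1.02 ± 0.16 at 0.13 generations, adjusted p = 0.00296). The list's median change at 6 generations was 0.07 in glucose, as for all genes, and 0.04 in galactose, beside 0.01 for all genes.

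Of 9 genes for regulators of respiration, ROX1, whose product represses hypoxic genes in air, fell in anaerobiosis in glucose (−5.02 ± 0.38 at 3 generations, adjusted p = 1.37e-10) and galactose (−3.23 ± 0.28 at 1 generation, adjusted p = 2.95e-09) and rose within 0.03 generations of re-aeration in glucose (6.17 ± 0.13 at 6.03 generations, adjusted p = 8.37e-25) and galactose (3.86 ± 0.32 at 6.03 generations, adjusted p = 1.69e-08). HAP1, for the heme-responsive activator, changed the opposite way, by 1.87 ± 0.18 at 0.5 generations, adjusted p = 2.74e-08 in anaerobiosis and −2.38 ± 0.14 at 6.13 generations, adjusted p = 2.96e-12 on re-aeration in galactose. HAP4, for the limiting subunit of the Hap2/3/4/5 activator, was called down in glucose (−1.85 ± 0.17 at 6 generations, adjusted p = 2.19e-08) and galactose (−1.35 ± 0.23 at 2 generations, adjusted p = 0.00749). CAT8, for an activator of genes of nonfermentable carbon sources, was called up at 0.08 generations with antimycin A in air (1.61 ± 0.17 at 0.08 generations, adjusted p = 9.99e-07) and without oxygen in galactose (1.66 ± 0.19 at 0.08 generations, adjusted p = 1.61e-06). In glucose anaerobiosis CAT8 was called down (−1.70 ± 0.15 at 6 generations, adjusted p = 9.73e-09). With antimycin A in air 3 of the 9 were called up and 0 down, and in anaerobiosis 1 up and 5 down in glucose and 3 up and 3 down in galactose.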

How the data were processed

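The deposited table held log2 ratios of 5609 open reading frames on 227 arrays, which the authors made from custom 70-mer two-color arrays with GenePix and normalized in SAS. The sources used here give neither the log base nor the centring. Base 2 was taken from a check on 4 sets of arrays, and the direction (Cy3 sample over Cy5 reference) from MSN2. The check assumed that the right base gives genes that change strongly the same mean ratio to the reference as steady genes. In glucose anaerobiosis the quotient of these means was 0.94 with base 2 and 1.06 with base e, so the check did not separate them there. All fold values rest on base 2. No array was excluded in the main fit, and all columns were tied to a sample. limma (version 3.58.1, R 4.3.3) estimated a mean for every time point of a series, and genes with at least 2 values in both groups were tested. Interaction terms tested whether a change differed between series. Holm's adjustment ran over all genes tested at a time point. Array number limits the precision. The fit was tested on simulated data.

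The 5 genes were named at every time point, related genes by the largest called change (at most 4 per list and series), and likeness by the 5 highest r values. The members and lists were chosen with earlier results of these data known. Gene names came from RefSeq (5597 of 5609 open reading frames matched). Promoters were not analysed here. Alternatives were Benjamini-Hochberg adjustment, separate fits, array-median and quantile normalization, a replicate block, genes with a value on every array, a 2-fold limit, other controls and time ranges, and leaving out replicates.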

Additional observations from a re-analysis of the deposited data

Results flagged for a closer look

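The changes of 16 gene and comparison pairs differed between series by the interaction test, and the largest difference of each is given here on the log2 scale. Against wild-type anaerobiosis in galactose, antimycin A in air gave a more positive change of NDE1 (5.13 at 3 generations), NDI1 (2.02 at 2 generations), CYB2 (5.93 at 1 generation) and DLD1 (2.37 at 0.38 generations). Anaerobiosis with antimycin A gave a more positive change of NDE2 (1.44 at 2 generations) and a more negative one of NDI1 (−2.17 at 0.08 generations) and DLD1 (−1.63 at 0.13 generations). Anaerobiosis in glucose gave a more negative change of NDI1 (−2.12 at 0.08 generations), CYB2 (−3.26 at 0.08 generations) and DLD1 (−1.64 at 0.13 generations). The msn2/4 mutant gave a more positive change of NDE1 (1.89 at 2 generations) and a more negative one of NDI1 (−1.02 at 0.08 generations), CYB2 (−3.07 at 0.08 generations) and DLD1 (−1.67 at 0.19 generations). Re-aeration in glucose, against that in galactose, gave a more positive change of NDI1 (1.15 at 6.8 generations) and a more negative one of CYB2 (−2.44 at 6.06 generations). The first 4 comparisons share the arrays of wild-type anaerobiosis in galactose.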

How the results depend on the processing

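The counts here are of tests of the 5 genes whose adjusted p did not exceed 0.01. With Benjamini-Hochberg adjustment the calls became 24 for antimycin A in air and 9 for the mutant, and the differences 15 for anaerobiosis with against without antimycin A, 25 for glucose against galactose, 10 for the mutant against the wild type and 12 for re-aeration. With only the groups compared in each fit, which leaves fewer arrays to estimate the spread, the calls became 32 for anaerobiosis in galactose, 5 for antimycin A in air, 6 for anaerobiosis with antimycin A and 25 for anaerobiosis in glucose, and the differences 1 for anaerobiosis with against without antimycin A, 5 for glucose against galactose and 1 for the mutant. Subtracting array medians gave 3 differences for the mutant, as did time points from 0 to 3 generations. Quantile normalization gave 3 differences for anaerobiosis with against without antimycin A, 5 for glucose against galactose and 5 for re-aeration. Genes with a value on every array gave 4 calls for antimycin A in air, since 6 tests that had been called were no longer made. The cause of the other shifts was not tested.

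Leaving out 1 replicate number at a time gave 37 to 39 calls for anaerobiosis in galactose (44 with all arrays), 3 to 10 for antimycin A in air (10), 12 to 19 for anaerobiosis with antimycin A (21), 34 to 36 for anaerobiosis in glucose (39), 0 to 1 for the mutant (3), 36 to 40 for re-aeration in galactose (41) and 30 to 37 for re-aeration in glucose (37). The differences numbered 15 to 24 for antimycin A in air (24), 3 to 7 for anaerobiosis with against without antimycin A (6), 3 to 8 for glucose against galactose (12), 0 to 1 for the mutant (5) and 0 to 2 for re-aeration (3). Summed over all alternatives and all tests of the 5 genes, 298 calls were lost, 131 were gained, of which 81 by Benjamini-Hochberg adjustment, and 0 turned direction.

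Replicate numbers were not used as pairs in the main fit. Same-numbered arrays deviated together with a mean r of 0.07 to 0.22, and not every pair was over 0.1. Arrays with other numbers gave a mean r of −0.11 to −0.03, so some likeness by replicate number was present. It was strongest in galactose re-aeration, where 145 of 165 same-numbered pairs were over 0.1. With the replicate block 6 differences were called for re-aeration, and no other count moved by over 1.5 times. An alternative chosen after seeing the data left out either of the 2 nearly identical glucose re-aeration arrays, and without replicate 3 of 7.6 generations 6 differences were called for re-aeration.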
